A study of Homo sapiens with 6 samples.

Results

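Integrins, laminins and nidogens join epithelial cells to the basement membrane, and their mRNA levels and splice forms were described in 2 human pancreatic cancer cell lines carrying ESRP1, ESRP2 or a control construct. The members were the rows of the deposited expression table that carried any of 33 gene symbols, after repeated rows had been dropped. They comprised 13 integrin alpha subunits, 8 integrin beta subunits, 5 laminin alpha, 3 laminin beta and 2 laminin gamma chains and 2 nidogens. They held 74 RefSeq transcripts, out of 27408 genes and 59128 transcripts in the whole table.

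The series holds 6 RNA-seq libraries made with an mRNA kit, 1 for each line and construct. The groups were PANC-1 with ESRP1 overexpression, PANC-1 with ESRP2 overexpression, PANC-1 with the LPCX control, MIA-PaCa2 with ESRP1 overexpression, MIA-PaCa2 with ESRP2 overexpression and MIA-PaCa2 with the LPCX control. Both are established lines of pancreatic carcinoma, and all 6 cultures were kept in DMEM with 10% serum and had no further treatment. Whether each overexpressing line was a clone or a pool is not given in the sources used here. ESRP1 and ESRP2 are RNA-binding proteins of epithelial cells that steer alternative splicing. The study asked what they do in the progression of pancreatic cancer.

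Levels were given as TPM, a share of each library's transcripts after division by transcript length, so that levels of different genes can be set side by side. The table holds no read counts, so the depth behind each value is unknown. In bulk RNA, fewer cells that express a gene and less of its RNA per cell cannot be told apart. ESRP1 stood at 491 TPM in the PANC-1 ESRP1 library and 367 TPM in the MIA-PaCa2 ESRP1 library, against at most 0.261 TPM in the other 4 libraries. ESRP2 stood at 308 TPM in the PANC-1 ESRP2 library and at 34.8 TPM in PANC-1 LPCX. It was 197 TPM in the MIA-PaCa2 ESRP2 library and 0.0704 TPM in MIA-PaCa2 LPCX. PANC-1 thus carried ESRP2 mRNA without the construct, and MIA-PaCa2 hardly any. The keratins KRT8, KRT18 and KRT19 were at 234 TPM or more in every library. Of 6 epithelial markers, 3 were under 0.5 TPM in MIA-PaCa2, where EPCAM was listed at 0, CDH1 reached 0.173 TPM and KRT7 0.475 TPM. EPCAM was 24.3 to 28.2 TPM in PANC-1. Of 3 mesenchymal markers, VIM was 4143 to 5620 TPM and ZEB1 19.2 to 24.2 TPM over all libraries, while CDH2 was 32.4 to 51.8 TPM in PANC-1 and at most 0.0212 TPM in MIA-PaCa2. Summed endothelial markers reached 3.23 TPM, acinar markers 0.302 TPM and islet markers 0.113 TPM. Of 5 leukocyte markers, CD68 reached 364 TPM while PTPRC stayed at or under 0.563 TPM, CD3E at or under 0.121 TPM and CD14 at or under 0.899 TPM. The fifth, LYZ, was 9.84 TPM with ESRP1, 7.70 TPM with ESRP2 and 3.62 TPM with LPCX in MIA-PaCa2, and at most 0.241 TPM in PANC-1. Of 5 fibroblast markers, 1 passed 5 TPM in each library, namely COL1A1 in PANC-1 and COL1A2 in MIA-PaCa2.

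An integrin is a pair of an alpha and a beta subunit that spans the membrane, binds matrix outside the cell and links to the cytoskeleton through short tails inside it. ITGB1 pairs with many alpha subunits. ITGB4 pairs with ITGA6 alone and anchors keratin filaments at hemidesmosomes. Laminins are trimers of an alpha, a beta and a gamma chain, and nidogens tie laminin to collagen IV in the basement membrane. ITGA3 and ITGA6 are laminin-binding alpha subunits. ITGA6 mRNA ends in either of 2 cytoplasmic tails, called A and B. The A tail is made when a 130-base exon is included, and the B tail when that exon is skipped and translation runs on into the last exon.

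The coding ends of both ITGA6 tails are shown because their choice carried the largest transcript difference among the members that were measured at 5 TPM or more in every library. They are printed 5′ to 3′ on the plus strand of GRCh38, as annotated in GENCODE release 29, with the stop codon in capitals. The A tail lies at chr2:172501772-172501879 and gives 35 codons before its stop. The B tail lies at chr2:172504091-172504252 in the last exon and gives 53 codons.
A tail: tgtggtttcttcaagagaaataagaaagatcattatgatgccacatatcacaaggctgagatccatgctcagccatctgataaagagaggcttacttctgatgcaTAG
B tail: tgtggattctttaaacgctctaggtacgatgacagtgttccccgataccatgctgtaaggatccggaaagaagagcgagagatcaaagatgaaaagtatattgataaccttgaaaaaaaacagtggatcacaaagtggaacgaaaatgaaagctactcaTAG
Of the first 18 bases, 13 are the same in both tails, after which the sequences part.

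ITGA6 was richer in the A tail in both ESRP libraries of both lines. Inclusion of the A tail exon was 96.8% with ESRP1 and 96.7% with ESRP2, against 88.7% with LPCX, in PANC-1. It was 78.9% with ESRP1 and 79.5% with ESRP2, against 39.0% with LPCX, in MIA-PaCa2. All 4 ESRP libraries therefore lay above the LPCX library of their own line, and MIA-PaCa2 with either ESRP still lay below PANC-1 with LPCX. The ESRP libraries exceeded LPCX by 8.16 percentage points (ESRP1) and 8.04 points (ESRP2) in PANC-1, and by 39.9 points (ESRP1) and 40.5 points (ESRP2) in MIA-PaCa2. The log2 odds of the A transcript within ITGA6, taken with 0.5 TPM added on either side, exceeded LPCX by 1.73 and 1.75 in PANC-1 and 2.39 and 2.44 in MIA-PaCa2, ESRP1 first in each pair.

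The transcripts of both tails differed in level. The A transcript NM_000210 was 92.8 TPM with ESRP1 and 95.0 TPM with ESRP2, against 77.3 TPM with LPCX, in PANC-1. In MIA-PaCa2 it was 26.7 TPM with ESRP1 and 26.2 TPM with ESRP2, against 10.2 TPM with LPCX. The B transcript NM_001079818 lay the other way in each line. It was 3.04 TPM with ESRP1 and 3.23 TPM with ESRP2, against 9.92 TPM with LPCX, in PANC-1, and 7.22 TPM with ESRP1 and 6.83 TPM with ESRP2, against 15.9 TPM with LPCX, in MIA-PaCa2. The MIA-PaCa2 LPCX library was the only one of the 6 in which B exceeded A. The remaining transcript, NM_001316306, uses a 117-base exon in place of a 132-base exon in the extracellular part. It never passed 0.400 TPM.

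**Figure D1:**
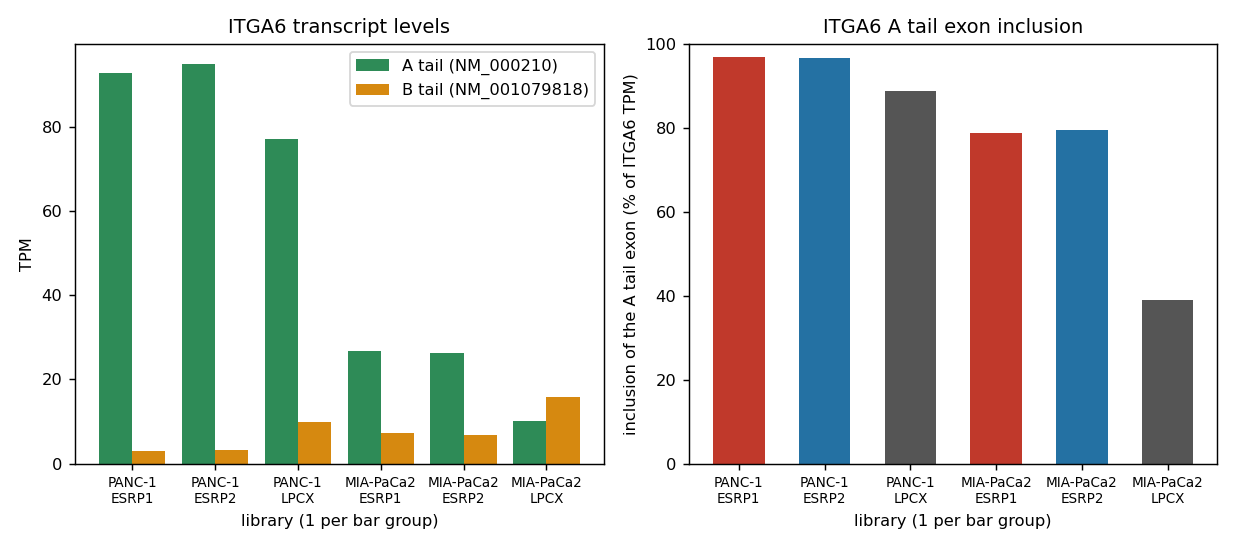
ITGA6 transcripts in the 6 libraries. The left panel gives TPM of the A tail and B tail transcripts as paired bars and the right panel the inclusion of the A tail exon as a percentage of ITGA6 TPM, with 1 library per bar and no error. A exceeds B in every library other than MIA-PaCa2 LPCX, where inclusion is 39.0%.

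The odds of each transcript within its gene were tested with limma on all 6 libraries in a model of construct plus line, with p-values adjusted over all 12965 transcripts of 6003 genes. The odds of the ITGA6 A transcript with ESRP1 differed from those with LPCX by 2.06 on the log2 scale (SE 0.290, 95% interval 1.30 to 2.83), which did not pass the threshold (adjusted p = 0.517 in limma). With ESRP2 the difference from LPCX was 2.10 (95% interval 1.33 to 2.86, adjusted p = 0.361 in limma). The unadjusted p-values were 0.00120 and 0.00112. By size these differences stood at places 85 and 117 among the transcripts. The ESRP1 and ESRP2 comparisons use the same LPCX libraries, so they are not separate evidence. No transcript of any gene was called for ESRP1 or for ESRP2, a background of 0.0% each, with 735 and 821 transcripts at an unadjusted p under 0.05. With a spread that follows the level, limma called 1 transcript for ESRP1 and 0 for ESRP2. Between the constructs, ESRP1 minus ESRP2 was -0.03 for the A transcript (95% interval -0.80 to 0.73), and again 0.0% of transcripts were called, with 579 at an unadjusted p under 0.05. That interval leaves room for a difference of either sign.

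Between the lines the ITGA6 odds did pass. The A transcript had odds higher in PANC-1 than in MIA-PaCa2 by 3.02 on the log2 scale (SE 0.237, adjusted p = 0.00851 in limma), and in each construct the PANC-1 library was the higher. Without the PANC-1 ESRP1 library, or without the MIA-PaCa2 ESRP1 library, the adjusted p was 0.0539 in limma. Both are the same fit of the line difference, since the library left in that construct has no partner. By their labels, libraries of a line differ only in their construct, and they were not labelled as separate cultures of it. Whether they differ in other ways is not known. P-values of a line comparison therefore measure the spread between these libraries, which may be technical. In this model the spread is how far a construct difference varies between the lines. An ESRP response that differs between the lines would thus count as spread, in the ESRP comparisons as well. Of 6 member transcripts tested between the lines, 4 were called, both of ITGA6 and both of ITGAV, against 16.4% of all transcripts. Both transcripts of such a gene make up nearly all of it, so their odds mirror each other. The 4 calls are therefore not separate results and stand for ITGA6 and ITGAV only.

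The ITGAV transcripts, which encode the alpha V subunit that binds vitronectin and fibronectin, differ in 2 internal exons that NM_001145000 lacks. The exons are shown because their joint loss is the other member splice difference called between the lines among genes of at least 5 TPM in every library. They lie on the plus strand of GRCh38 at chr2:186630797-186630858 and chr2:186633329-186633374, are printed as annotated in GENCODE release 29, and no base is put in capitals. Together they hold 108 coding bases, a whole number of codons (36).
ITGAV exon a: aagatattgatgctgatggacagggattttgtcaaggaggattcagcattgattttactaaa
ITGAV exon b: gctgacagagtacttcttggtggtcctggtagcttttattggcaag
NM_001145000 made up 4.12% of ITGAV with ESRP1, 4.88% with ESRP2 and 5.20% with LPCX in PANC-1, and 15.5%, 11.3% and 14.8% in MIA-PaCa2 with ESRP1, ESRP2 and LPCX. The 3 PANC-1 libraries were all below the 3 MIA-PaCa2 libraries, with no overlap. Its odds were lower in PANC-1 by 1.68 on the log2 scale of the odds (log2 difference -1.68, SE 0.230, adjusted p = 0.0212 in limma). That call was lost whichever library was left out (adjusted p 0.0682 to 0.0932 in limma), where either library of a construct gives the same fit. The transcript itself was 4.74 to 5.92 TPM in PANC-1 and 4.43 to 6.11 TPM in MIA-PaCa2. The full-length NM_002210 was 107 to 115 TPM in PANC-1 and 31.7 to 34.9 TPM in MIA-PaCa2. The levels of the shorter form thus overlapped between the lines, and those of the full-length form did not.

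ITGB1, ITGB4, ITGA7, LAMA3 and ITGA3 also have known alternative forms. ITGB1 transcript NM_002211 held 83.5% to 86.2% of the gene in the 6 libraries, and NM_133376, which has another first exon and the same coding sequence, 13.7% to 16.4%. Its transcript NM_033668, which carries an extra 81-base exon near the tail, never passed 0.349%. In PANC-1, ITGB4 transcript NM_001321123 held 43.4% with ESRP1 and 45.6% with ESRP2, against 74.7% with LPCX. In MIA-PaCa2 it held 74.8% with ESRP1 and 76.5% with ESRP2, against 80.1% with LPCX. ITGB4 was 4.88 to 8.37 TPM in PANC-1, so those shares rest on 2.23 to 6.25 TPM of the transcript. When genes down to 1 TPM in every library were tested, its log2 odds differed from LPCX by -1.07 with ESRP1 (95% interval -2.19 to 0.04, adjusted p = 0.932 in limma) and by -0.94 with ESRP2 (95% interval -2.05 to 0.18, adjusted p = 0.825 in limma). Transcript NM_001005731 has a coding sequence of the same length as NM_001321123, 5256 bases. In PANC-1 it held 31.3% with ESRP1 and 32.8% with ESRP2, against 10.6% with LPCX. In MIA-PaCa2 it held 19.3% with ESRP1 and 15.0% with ESRP2, against 14.6% with LPCX. The shares of these transcripts are thus no measure of a change in the ITGB4 protein. Another ITGB4 transcript, NM_001005619, carries an extra 159-base exon. It held 18.1%, 18.7% and 12.6% of ITGB4 in PANC-1 with ESRP1, ESRP2 and LPCX, against 4.17%, 4.37% and 3.07% in MIA-PaCa2, at 0.913 to 1.31 TPM in PANC-1 and 3.46 to 7.51 TPM in MIA-PaCa2. Its odds between the lines differed by 2.57 on the log2 scale in the same test of genes down to 1 TPM (SE 0.203, adjusted p = 0.00910 in limma), which called 14.8% of all transcripts. ITGA7, another laminin-binding alpha subunit, had 1.01 to 1.65 TPM in all, spread over 3 transcripts. LAMA3 reached 2.13 TPM at most, so its long and short forms were not compared. ITGA3 has a single transcript in the table, NM_002204, and its tails could not be told apart here. A share that moved by at least 10 percentage points the same way in both lines was found in 0 of 3 countable members (ITGA6, ITGAV and ITGB1) with ESRP1 and in 0 of 3 with ESRP2. The background was 2.62% of genes with ESRP1 and 3.6% with ESRP2. ITGA6 did not reach that step, with differences of 8.16 and 8.04 points in PANC-1. Its B transcript held 11.3% there with LPCX and could fall by no more than that, so the count of 0 says little about ITGA6.

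The levels of the 33 genes fell into those in use and those barely transcribed. In some library 17 members reached 5 TPM, and the same 17 passed the filter of at least 5 TPM in at least 2 libraries. The other 16 stayed under 5 TPM everywhere, with a highest value of 2.21 TPM for LAMA2, and 9 of them stayed under 1 TPM. The low integrins were ITGA1, ITGA4, ITGA7, ITGA8, ITGA9, ITGA11, ITGB2, ITGB6, ITGB7 and ITGB8. The low matrix genes were LAMA1, LAMA2, LAMA3, LAMA4, LAMB3 and NID2. Of the low genes, LAMA2 was at most 0.0162 TPM in PANC-1 and 1.72 to 2.21 TPM in MIA-PaCa2. ITGB6, an epithelial partner of ITGAV, was 0.0551 to 0.0868 TPM in PANC-1 and 0.852 to 1.57 TPM in MIA-PaCa2. LAMB3 was 0.451 to 0.720 TPM in PANC-1 and 1.52 to 1.89 TPM in MIA-PaCa2. These 3 were thus lower in PANC-1 with no overlap, and so were ITGA4, ITGA8, ITGA9 and ITGA11, at 0.449 TPM or less. ITGA1, ITGA7, LAMA1, LAMA3 and LAMA4 were higher in PANC-1 with no overlap. LAMA4, for example, was 0.770 to 2.18 TPM in PANC-1 and at most 0.0872 TPM in MIA-PaCa2. LAMA1 never passed 0.0244 TPM. All these levels lay under the filter of the tests, and the share of all genes without overlap was not counted. The separation is therefore no result about these members. Among the low genes are also the leukocyte subunits ITGA4, ITGB2 and ITGB7 and the epithelial chains LAMA3 and LAMB3. Summed over all members, PANC-1 held 2933 TPM with ESRP1, 3003 TPM with ESRP2 and 2742 TPM with LPCX. MIA-PaCa2 held 1557 TPM with ESRP1, 1401 TPM with ESRP2 and 1438 TPM with LPCX.

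**Figure D2:**
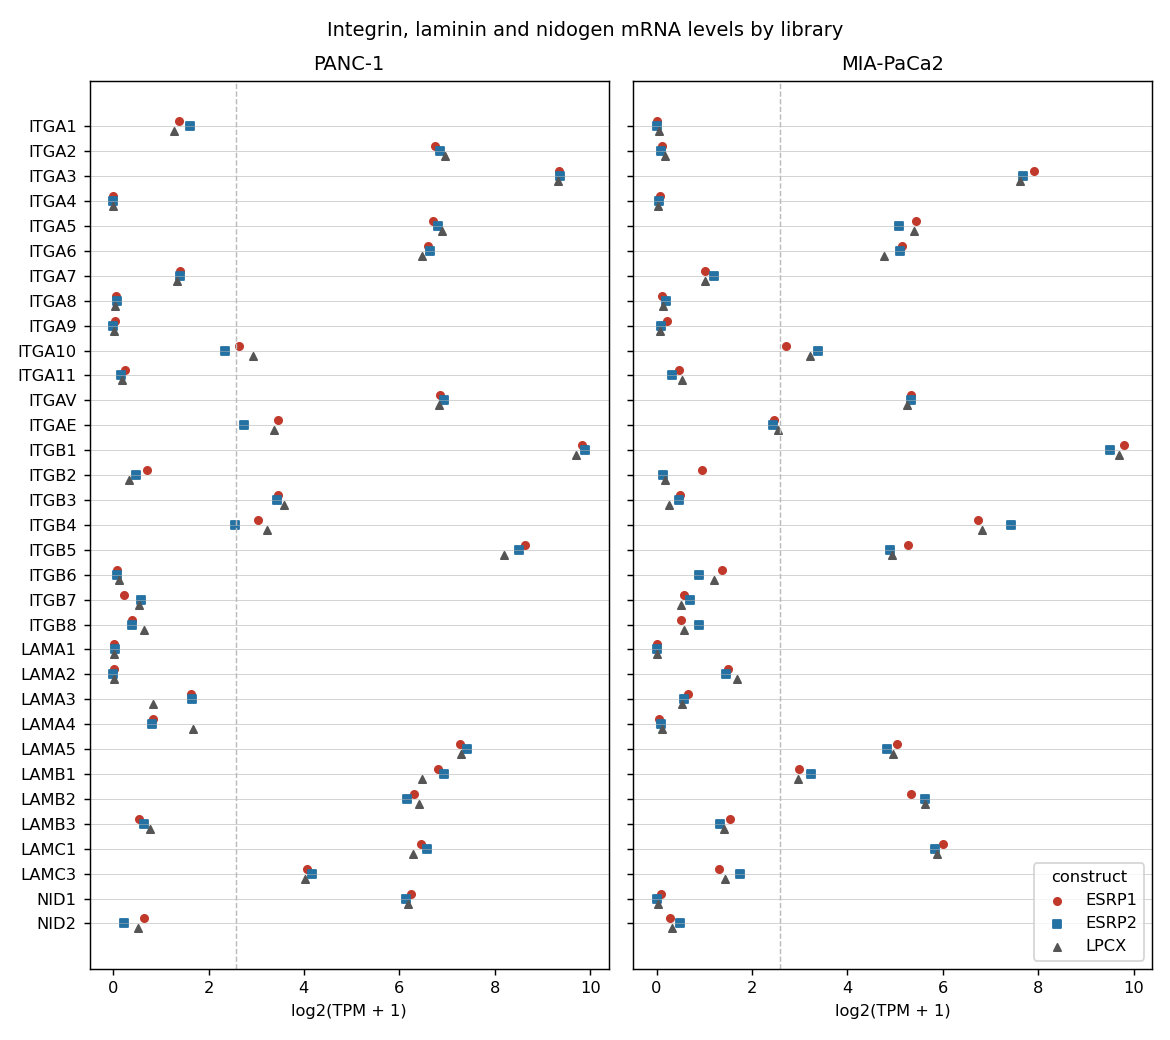
Levels of all 33 members on a log2(TPM + 1) scale, PANC-1 on the left and MIA-PaCa2 on the right, with 1 point per library and the dashed line at 5 TPM. The constructs lie close together for the expressed members of each line, while ITGA2, NID1 and ITGB3 are past the line in PANC-1 and near 0 in MIA-PaCa2.

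ITGB1, the common beta subunit, was the most abundant member in every library. Its level was 904 TPM with ESRP1, 955 TPM with ESRP2 and 828 TPM with LPCX in PANC-1. In MIA-PaCa2 it was 893 TPM with ESRP1, 726 TPM with ESRP2 and 827 TPM with LPCX. The lines overlapped, and the limma difference of 0.14 in log2(TPM + 1) between PANC-1 and MIA-PaCa2 did not pass (95% interval -0.11 to 0.38, adjusted p = 0.242). The alpha subunits together did not keep this balance between the lines. They summed to 1.20 times ITGB1 with ESRP1, 1.18 times with ESRP2 and 1.34 times with LPCX in PANC-1. In MIA-PaCa2 the ratio was 0.413 with ESRP1, 0.447 with ESRP2 and 0.382 with LPCX. ITGA3 made up 58.2% to 65.3% of all alpha subunit TPM in the 6 libraries.

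Of the alpha subunits, the largest difference was in ITGA2, the collagen-binding subunit. It was 106 TPM with ESRP1, 114 TPM with ESRP2 and 124 TPM with LPCX in PANC-1, against 0.0852, 0.0625 and 0.124 TPM in MIA-PaCa2 with ESRP1, ESRP2 and LPCX. The difference in log2(TPM + 1) was 6.72 (SE 0.0831, adjusted p = 1.13e-06 in limma). Its neighbour on chromosome 5, ITGA1, was at 1.42 to 2.05 TPM in PANC-1 and at most 0.0376 TPM in MIA-PaCa2.

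ITGA3 was 647 TPM with ESRP1, 664 TPM with ESRP2 and 644 TPM with LPCX in PANC-1, against 241, 203 and 197 TPM in MIA-PaCa2 with ESRP1, ESRP2 and LPCX. ITGA6 was 96.2, 98.5 and 87.6 TPM in PANC-1 with ESRP1, ESRP2 and LPCX, against 34.2, 33.3 and 26.1 TPM in MIA-PaCa2. These laminin-binding subunits did not overlap between the lines and were higher in PANC-1 by 1.61 and 1.57 in log2(TPM + 1). ITGA5, which forms the fibronectin receptor with ITGB1, was 104, 112 and 118 TPM in PANC-1 with ESRP1, ESRP2 and LPCX, against 42.5, 33.1 and 41.2 TPM in MIA-PaCa2. ITGAV was 115, 121 and 113 TPM in PANC-1 with ESRP1, ESRP2 and LPCX, against 39.3, 39.3 and 37.2 TPM in MIA-PaCa2. They too separated the lines fully, with log2 differences of 1.50 and 1.57. The adjusted p-values of these 4 genes in limma ran from 7.82e-06 to 5.54e-05. ITGAE, the partner of ITGB7 on T cells, was 10.0, 5.74 and 9.42 TPM in PANC-1 with ESRP1, ESRP2 and LPCX, against 4.52, 4.40 and 4.85 TPM in MIA-PaCa2. Its log2 difference was 0.72 (adjusted p = 0.00681 in limma). ITGA10, a collagen-binding subunit of cartilage, was 4.06 to 6.68 TPM in PANC-1 and 5.58 to 9.40 TPM in MIA-PaCa2. Its ranges overlapped and its log2 difference of -0.46 did not pass (adjusted p = 0.0822 in limma).

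The beta subunits differed in opposite directions between the lines. ITGB5, which pairs with ITGAV, was 398 TPM with ESRP1, 363 TPM with ESRP2 and 291 TPM with LPCX in PANC-1, against 37.7, 28.9 and 29.7 TPM in MIA-PaCa2 with ESRP1, ESRP2 and LPCX. ITGB3, the other vitronectin receptor subunit that pairs with ITGAV, was 10.1, 9.80 and 11.0 TPM in PANC-1 with ESRP1, ESRP2 and LPCX, against 0.413, 0.390 and 0.203 TPM in MIA-PaCa2. Both were higher in every PANC-1 library, by 3.41 (SE 0.0823, adjusted p = 2.93e-06 in limma) and 3.08 (SE 0.138, adjusted p = 1.61e-05 in limma) in log2(TPM + 1). ITGB4 was the member that was called lower in PANC-1. It was 7.23 TPM with ESRP1, 4.88 TPM with ESRP2 and 8.37 TPM with LPCX in PANC-1, against 105, 172 and 113 TPM in MIA-PaCa2 with ESRP1, ESRP2 and LPCX. Its log2 difference was -4.06 (SE 0.256, adjusted p = 5.01e-05 in limma). ITGA6 and its partner ITGB4 thus stood in opposite proportion. ITGA6 was 13.3 times ITGB4 with ESRP1, 20.2 times with ESRP2 and 10.5 times with LPCX in PANC-1, and 0.324, 0.194 and 0.232 times in MIA-PaCa2 with ESRP1, ESRP2 and LPCX.

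Among the laminins, LAMA5 was the alpha chain in use, at 91.7% or more of all laminin alpha TPM in each library. It was 154, 169 and 155 TPM in PANC-1 with ESRP1, ESRP2 and LPCX, against 32.2, 27.5 and 30.2 TPM in MIA-PaCa2, a log2 difference of 2.38 (SE 0.0837, adjusted p = 7.66e-06 in limma). LAMB1 was 112, 121 and 88.0 TPM in PANC-1 with ESRP1, ESRP2 and LPCX, against 6.92, 8.43 and 6.80 TPM in MIA-PaCa2. That was a log2 difference of 3.68 (SE 0.0824, adjusted p = 2.55e-06 in limma). The alternative beta chain LAMB2 was closer, at 78.4, 70.1 and 83.9 TPM in PANC-1 with ESRP1, ESRP2 and LPCX, against 39.5, 48.3 and 48.3 TPM in MIA-PaCa2 (log2 difference 0.76, adjusted p = 7.24e-04 in limma). LAMB1 was therefore 58.8%, 63.2% and 51.2% of the sum of LAMB1 and LAMB2 in PANC-1 with ESRP1, ESRP2 and LPCX, and 14.9%, 14.9% and 12.3% in MIA-PaCa2. LAMC1, the common gamma chain, was 87.2, 94.9 and 77.4 TPM in PANC-1 with ESRP1, ESRP2 and LPCX, against 63.6, 56.0 and 57.7 TPM in MIA-PaCa2 (log2 difference 0.54, adjusted p = 0.00183 in limma). LAMC3, a rarer gamma chain, was 15.8, 17.1 and 15.3 TPM in PANC-1 with ESRP1, ESRP2 and LPCX, against 1.47, 2.36 and 1.71 TPM in MIA-PaCa2. Its log2 difference was 2.59 (SE 0.109, adjusted p = 1.35e-05 in limma). LAMA5 stood at 1.77 to 2.01 times LAMC1 in PANC-1 and at 0.492 to 0.523 times LAMC1 in MIA-PaCa2.

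NID1 was measured in PANC-1 and close to absent in MIA-PaCa2. It was 74.6 TPM with ESRP1, 69.8 TPM with ESRP2 and 72.0 TPM with LPCX in PANC-1. In MIA-PaCa2 it was 0.0681 TPM with ESRP1, listed at 0 with ESRP2 and 0.0152 TPM with LPCX. The log2 difference was 6.15 (SE 0.0842, adjusted p = 1.13e-06 in limma). The other nidogen, NID2, did not replace it, at 0.208 to 0.412 TPM in MIA-PaCa2 and 0.176 to 0.558 TPM in PANC-1.

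**Figure D3:**
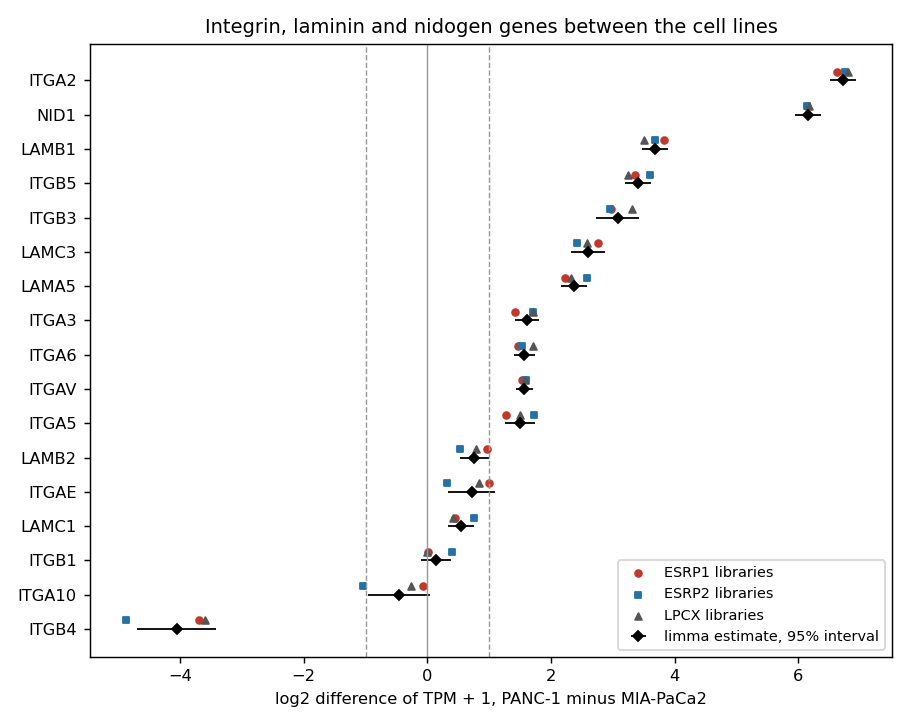
Differences between the lines for the 17 members that passed the filter, as PANC-1 minus MIA-PaCa2 in log2(TPM + 1). Diamonds with bars are limma estimates with 95% intervals, coloured points the 3 constructs, and dashed lines mark 2-fold; ITGA2 and NID1 lie farthest to the right and ITGB4 alone far to the left.

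In all, 14 members were called higher and 1 lower in PANC-1, where the background was 43.1% of 11829 genes called higher and 35.6% called lower. With most genes called, a call says little about a member, and sizes say more. Members at least 2-fold apart in the same direction with each of the 3 constructs were 11 higher and 1 lower of 17, beside a background of 15.4% higher and 9.97% lower of 12200 genes. The 11 higher ones were ITGA2, ITGA3, ITGA5, ITGA6, ITGAV, ITGB3, ITGB5, LAMA5, LAMB1, LAMC3 and NID1. ITGA2, ITGAE, ITGB3, LAMC3 and NID1 passed the filter through PANC-1 alone and could only differ in that direction, so no count or median over the 17 bears on the members as a set.

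The gene levels of the members lay close to LPCX with either ESRP. No member was called for ESRP1 against LPCX, beside a background of 0.00845% of genes, and none for ESRP2 against LPCX, beside 0.0169%. Between ESRP1 and ESRP2 none was called either, beside 0.00845%. With so few genes called in the whole table, the lack of calls is near the background and says little about the members. These were limma tests adjusted over 11829 genes, of which 820, 1634 and 497 had an unadjusted p under 0.05. Of the 17 members, 2, 2 and 0 had one. ITGA6 differed by 0.25 in log2(TPM + 1) for ESRP1 (95% interval 0.04 to 0.47, adjusted p = 0.658 in limma) and by 0.25 for ESRP2 (95% interval 0.04 to 0.47, adjusted p = 0.336 in limma). ITGB5 differed by 0.39 with ESRP1 (95% interval 0.14 to 0.64, adjusted p = 0.658 in limma). LAMB1 differed by 0.36 with ESRP2 (95% interval 0.11 to 0.62, adjusted p = 0.329 in limma). Without the MIA-PaCa2 LPCX library the ITGA6 differences were 0.15 for each construct, and without the PANC-1 LPCX library LAMB1 differed by 0.24 for ESRP2. In ITGA6 all 4 ESRP libraries lay above the LPCX library of their line, and the same held for LAMB1, by 0.02 with ESRP1 in MIA-PaCa2. In ITGB5 it held for 3 of 4, since the MIA-PaCa2 ESRP2 library was at 28.9 TPM and the LPCX library at 29.7 TPM. Most genes lay above LPCX too, with median log2 ratios from 0.04 (ESRP1 in MIA-PaCa2) to 0.10 (ESRP2 in PANC-1). The LAMB1 ratio with ESRP1 in MIA-PaCa2 was under that median.

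The median log2 difference of the members was 0.05 for ESRP1 and 0.01 for ESRP2, against 0.06 over all genes for each. ESRP1 minus ESRP2 had a median of 0.03 over the members and ranged from -0.27 to 0.37. The widest intervals were those of ITGB4, from -0.93 to 0.65 for ESRP1 and from -0.82 to 0.75 for ESRP2. Its log2 ratio of ESRP2 to LPCX was -0.67 in PANC-1 and 0.60 in MIA-PaCa2. The model averages such opposite ratios and counts their gap as spread. Differences as large as these intervals were therefore not detectable in ITGB4 in this design.

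**Figure D4:**
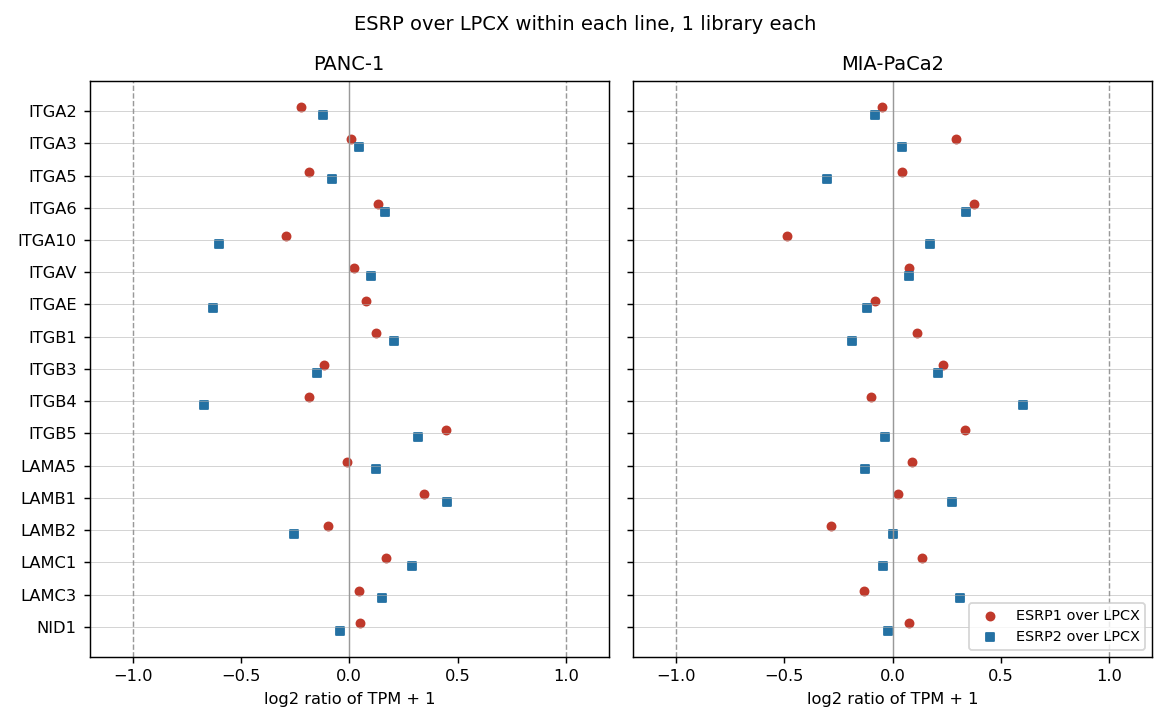
Log2 ratios of TPM + 1 for ESRP1 and ESRP2 over LPCX within PANC-1 (left) and MIA-PaCa2 (right), with 1 library on each side of a ratio and no error. All points for the 17 members lie inside the dashed lines at 2-fold, from -0.67 for ITGB4 with ESRP2 in PANC-1 to 0.60 for ITGB4 with ESRP2 in MIA-PaCa2.

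Within a line, where no test is possible with 1 library on each side, no member was 2-fold apart from LPCX in any of the 4 comparisons. Countable members numbered 17 in PANC-1 and 12 in MIA-PaCa2. The background in PANC-1 was 1.51% of genes for ESRP1 and 1.96% for ESRP2, and that in MIA-PaCa2 was 1.28% for ESRP1 and 1.62% for ESRP2. Finding none among so few members is near those shares. ITGB4 with ESRP2 gave the extremes, at a log2 ratio of -0.67 in PANC-1 and 0.60 in MIA-PaCa2. ESRP1 ratios ran from -0.29 for ITGA10 to 0.45 for ITGB5 in PANC-1, and from -0.49 for ITGA10 to 0.38 for ITGA6 in MIA-PaCa2. Among the members under 5 TPM, LAMA4 was 0.775 TPM with ESRP1 and 0.770 TPM with ESRP2, against 2.18 TPM with LPCX, in PANC-1. LAMA3 was 2.11 TPM with ESRP1 and 2.13 TPM with ESRP2, against 0.792 TPM with LPCX, in PANC-1. These low levels have no test.

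A list of 56 further adhesion genes, holding integrin adaptors, hemidesmosome parts, tetraspanins and basement membrane proteins, was described in the same way. Of these, 39 passed the filter. None was called for ESRP1, for ESRP2 or between them, with 2, 7 and 3 of 39 at an unadjusted p under 0.05 in limma, beside 820, 1634 and 497 of all 11829 genes. Between the lines 19 of 39 were called higher and 16 lower in PANC-1, near the background of 43.1% and 35.6%. The list's median was 0.13 in log2(TPM + 1), with both directions nearly even. The hemidesmosome collagen COL17A1 lay on the side of ITGB4, at 0.0998, 0.200 and 0.174 TPM in PANC-1 with ESRP1, ESRP2 and LPCX, against 62.0, 42.9 and 45.1 TPM in MIA-PaCa2 (log2 difference -5.44, adjusted p = 3.91e-06 in limma). Other genes linked to hemidesmosomes, chosen after their values were seen, were not alike. DST had a log2 difference of -0.81, whereas PLEC and the tetraspanin CD151 were higher in PANC-1, by 0.74 (adjusted p = 2.41e-04 in limma) and 1.31 (adjusted p = 4.59e-05 in limma). TNS4 and FERMT1, which bind integrin beta tails, were lower in PANC-1 by log2 differences of -3.86 and -3.54. COL17A1, TNS4 and FERMT1 were under 5 TPM in every PANC-1 library. They passed the filter through MIA-PaCa2 alone and could only differ in that direction. TNS4 was also 2-fold apart within MIA-PaCa2, at 30.7 TPM with ESRP2 against 10.1 TPM with LPCX. LOXL2, a collagen-crosslinking enzyme, and TNS2, another tensin, had log2 differences of -2.60 and -1.62. The basement membrane proteins HSPG2 and FBLN1 were on the side of the laminins, with log2 differences of 2.32 and 2.29. ACTN4, ILK and CD81, a crosslinker of actin, an adaptor kinase of integrin tails and a tetraspanin, were higher in PANC-1 by 1.85, 1.60 and 1.37. The 10 genes of this list with the largest differences had adjusted p-values from 2.24e-06 to 2.27e-04 in limma.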

How the data were processed

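The authors deposited 1 table of TPM (transcript abundance scaled to length and to a fixed library total) per RefSeq transcript for 6 TruSeq mRNA libraries made from 2 ug of total RNA each, per the labels' protocols. The submitters' processing notes name Salmon and the build GRCh38 (hg38); no version or annotation is given in these sources. The column of the MIA-PaCa2 ESRP2 library carries a header that differs from its title and was matched by elimination. Of 67792 deposited lines, 8664 exact repeats were dropped, after which each library summed to 1000000 TPM, and transcripts were summed per gene. Of TPM no depth can be recovered. Genes reaching 5 TPM in 2 libraries or more were tested with limma 3.58.1 (R 4.3.3, spread following the level) on log2(TPM + 1), with construct and cell line as terms, 2 residual degrees of freedom and a threshold of 0.05 after Benjamini-Hochberg adjustment. Transcript odds used a pseudocount of 0.5 TPM, genes of at least 5 TPM in every library and transcripts of at least 10% of their gene somewhere. Fold changes on these scales understate the change of low genes. The scripts were tested on simulated data with spreads drawn from the residuals of these libraries. There the gene test called 66% of 2-fold changes for ESRP1 against LPCX and 66% for ESRP2 against LPCX. The transcript test called 12% of 4-fold changes of the odds for ESRP1 against LPCX and 23% for ESRP2 against LPCX. A 4-fold change of the odds in a typical transcript would thus mostly be missed. The spreads were shuffled over transcripts, so these shares do not apply to a given transcript such as those of ITGA6. Both comparisons have the same design, so the gap between 12% and 23% is not a property of either. Exons came from GENCODE release 29, paired by accession for 50 of 74 member transcripts in 30 members. Per-library values were given for members that were called or at least 2-fold apart, and for known alternative tails. Of the adhesion list, the 10 largest called genes were named. Members and lists were chosen with earlier results of these data known. Alternatives were another pseudocount, other filters, size factors, no block, and each library left out. The spread following the level for transcripts was added after seeing the data.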

Additional observations from a re-analysis of the deposited data

Results flagged for a closer look

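ITGB3 was the expressed member whose 2 ESRP libraries lay on one side of LPCX in one line and on the opposite side in the other. Its log2 ratios of TPM + 1 to LPCX in PANC-1 were -0.12 for ESRP1 and -0.15 for ESRP2, and those in MIA-PaCa2 were 0.23 for ESRP1 and 0.21 for ESRP2. This difference between the lines was not tested. The MIA-PaCa2 levels behind it were 0.203 to 0.413 TPM.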

How the results depend on the processing

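With 1 library for each line and construct, the cell line served as the block of the construct comparisons. With no replicate block, 0 members were still called for either ESRP. The number of member transcripts called between PANC-1 and MIA-PaCa2, 4 with all libraries, was 0 to 2 when a library was left out. Those fits keep 1 residual degree of freedom and called 167 to 216 of all transcripts, against 2132. Leaving out either library of a construct gives the same fit of the line difference. With a pseudocount of 0.1 TPM, 1059 of all transcripts were called. With genes down to 1 TPM in every library, 1 of 6 members, ITGA7, had a share moved in both lines with ESRP2. The background for ESRP2 was then 388 of 7179 genes. For ESRP1 it was 0 of 6 members, beside 295 of 7179 genes. ITGA7 had 1.01 to 1.65 TPM in all. The ITGB5 difference for ESRP2 against LPCX was -0.0072 without the PANC-1 ESRP2 library and 0.29 without the MIA-PaCa2 ESRP2 library, against 0.14 with all. Calls over all genes for ESRP2 against LPCX numbered 30 without the MIA-PaCa2 ESRP2 library and 13 without the PANC-1 ESRP2 library, against 2, and for ESRP1 against ESRP2 they numbered 9 and 23, against 1. Counts of members called by level kept within 1.5 times under every alternative run. Unknown depth and single libraries limit every value under a few TPM.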
